A study of Rattus norvegicus with 3 samples.

Results

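The control kidney transcriptome described here is the part of the series without treatment: 1 array hybridised with kidney RNA of spontaneously hypertensive rats that received only water. A probe was counted as above background where 50% or more of its spots reached 3 in signal-to-noise ratio, and probes were ranked by net intensity, the mean pixel brightness of the spot less the background of the array, in scanner units. By this rule 15353 of the 30267 measured probes (50.7%) were above background, and 14914 were not. Through the gene names of the probes these came to 10153 of 18093 named genes (56.1%).

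The animals were male rats of the spontaneously hypertensive strain, which the labels place on a Wistar background, 8 to 10 weeks old and weighing 280 to 330 g. The control group was given about 3 mL of water by mouth for 4 weeks. The other groups were given the same volume with a protein hydrolysate of blue mussel at 10 or 20 mg/kg/day for 28 days. Each group held 10 rats, equal amounts of kidney RNA from 4 of them were mixed, and the mix was labelled with Cy3 and hybridised to a single rat 4x44K oligonucleotide array. All animals of the series carry the hypertensive background and no normotensive strain was used here, so features of hypertension and features of any rat kidney cannot be told apart. With 1 pooled array the spread between rats is unknown and no test is possible, and all that follows is a description of that array.

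The kidney filters blood plasma in the glomerulus, where podocytes hold the filter. The proximal tubule then takes back most of the salt, glucose, amino acids and phosphate and secretes organic acids and drugs, work that is paid for by mitochondria burning fatty acids and other fuels. The thick ascending limb takes up salt without water, the distal convoluted tubule trims sodium, calcium and magnesium, and the collecting duct sets the final water, sodium, potassium and acid content of the urine through principal and intercalated cells. Hormones made in or acting on the kidney, angiotensin among them, control blood pressure.

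Net intensity ranks probes, not molecules, because a probe's brightness also depends on how well it binds and on where in the transcript it lies. Between spots of the same probe the median SD was 0.24 on the log2 scale (1114 probes above background with several spots). Between different probes of the same gene the median SD was 1.11 on the log2 scale (1357 genes), against 2.23 over all genes above background. For such genes the median ratio of brightest to dimmest probe was 3.10-fold and its 90th percentile 19.7-fold, and 41.0% of them spanned 4-fold or more. Neighbours in rank are therefore not told apart, and a difference of a few fold between genes is within what 2 probes of 1 gene show. Of the 289 bright genes with several probes above background, 108 had every such probe in the bright range. Of the 3344 named genes with several probes, 34.4% had probes on both sides of the background limit.

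Genes were placed by their brightest probe above background into 4 tiers. The value given for a gene is that of its brightest probe, and other probes of the gene can read far lower. Bright is the highest 10% of the genes above background, dim the lowest 25%, middle the rest, and silent means that every probe of the gene was under the limit. The bright tier held 1016 genes (5.62% of all named genes) with net intensities from 1721.7 to 57430 and a median of 3728. The middle tier held 6616 genes (36.6%, median 216), the dim tier 2521 (13.9%, median 36) and the silent tier 7940 (43.9%, median 8). The bright genes carried 72.5% of the summed net intensity of all genes above background, the middle genes 26.5% and the dim genes 1.01%. The 10 brightest genes alone carried 4.77% and the 100 brightest 26.3%. The limits cut through a continuum. Eif4a3 at 1721.7 was the last bright gene and C8h11orf54 at 1721 the first of the middle tier, Zfp280c at 59 closed the middle tier, and Fxyd1 passed the signal-to-noise limit at exactly 3 where Sema5a with 2.96 did not.

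**Figure D1:**
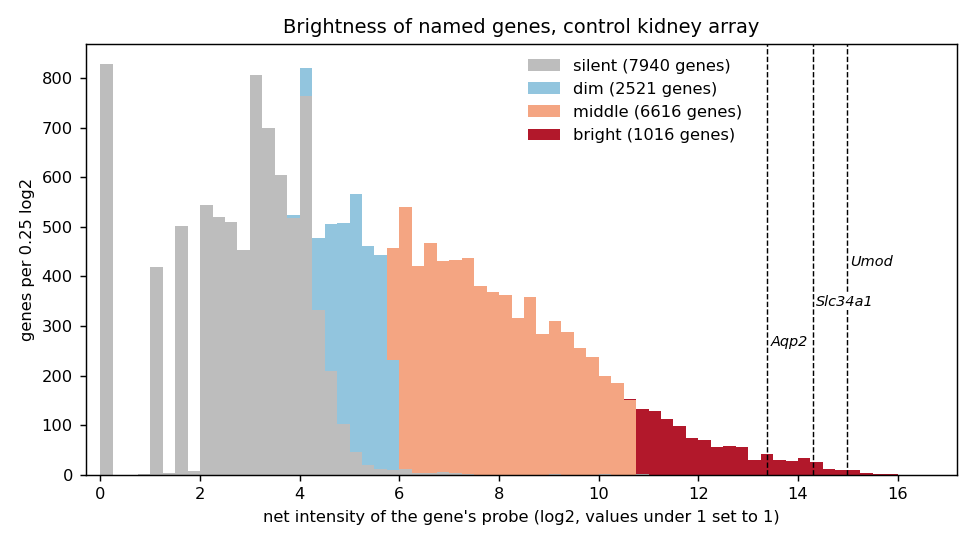
Histogram of net intensity (log2 of scanner units, values under 1 set to 1) over the 18093 named genes of the control array, coloured and stacked by tier, in steps of 0.25. The 7940 silent genes lie at the low end with a median of 8, and dashed lines mark Aqp2 (10691), Slc34a1 (20143) and Umod (32413) far out in the bright tail.

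Silent here stands for a signal not told from background, not for absence of a transcript. The array carries a series of 10 spike-in probes with 32 spots each, whose median net intensities climbed from 3 to 9357. The 4 weakest had no spot past the limit, the next had a median of 26 and 18 of its 32 spots past the limit, and the 4 brightest had all 32. None of the 153 negative control spots (median 2) and none of the 120 spots for external RNA control sequences (median 5) passed. Of 604 blank corner spots 6 (0.993%) passed, the brightest at 116. A local effect also matters for some genes: 9 blocks of 10 by 10 spots held replicate spots dimmer than elsewhere on the array, with median differences of -0.80 to -0.51 on the log2 scale. Against the arrays of the treated groups 7 blocks were dimmer, by medians of -0.87 to -0.33 on the log2 scale, a comparison chosen after the data were seen. For 405 named genes (2.24%) all spots of the probe that stands for the gene lay in blocks of either kind, called dim blocks below. Other probes of such a gene were not considered. This is said wherever such a gene is named. Another 37 genes had a net intensity above the dim tier but failed the signal-to-noise limit, Echdc2 at 1938 and the podocyte gene Clic5 at 1046 being the brightest of them.

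The 3 marker genes of the kidney tubule were all bright. Umod, which encodes uromodulin, the most abundant protein of normal urine and a product of the thick ascending limb, stood at 32413, in rank 18 of the named genes. Slc34a1, the sodium phosphate carrier of the proximal tubule, stood at 20143 in rank 57. Aqp2, the vasopressin-regulated water channel of principal cells, stood at 10691 in rank 174. The label of kidney tissue is thus matched by markers from the proximal, middle and last stretches of the tubule.

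The bright tier joined household machinery with genes of tubule work. The brightest named gene was Rpl41, a small ribosomal protein, at 57430, close to the scanner's ceiling of 65535, and 1 probe of the whole array had saturated pixels. Next came Rn18s, the small-subunit ribosomal RNA, at 48815. Its probe carries an older name for a hypothetical protein in the file. Among the 40 brightest genes were 10 of the cytosolic ribosome (Fau, whose product holds Rps30, included), led after Rpl41 by Rplp0 at 38516 and Rplp2 at 30688. Another 8 belonged to the respiratory chain or ATP synthase. Atp5me and Atp5f1a, subunits of ATP synthase, stood at 42987 and 36972, Uqcr10 of the bc1 complex at 34396, and Cox6a1 and Cox8a of cytochrome oxidase at 31370 and 29297.2. Cox8a is printed on 10 spots, and its SD between them was 0.09 on the log2 scale. The ferritin chains Fth1 and Ftl1, which store iron, reached 42460 and 38550.

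Kidney-restricted or kidney-rich genes stood beside them. Miox, myo-inositol oxygenase, an enzyme found mainly in proximal tubule, reached 44682. Fbp1, fructose-bisphosphatase of gluconeogenesis, reached 42673. Kap, the androgen-regulated kidney protein of rodents, stood at 37760. Cyp4a2, an omega-hydroxylase of arachidonic acid, stood at 31764, Slc13a3, the dicarboxylate carrier, at 25385, and Slc3a1, the heavy chain of the cystine carrier, at 24612. The metal-binding protein Mt1 reached 28855, Gsta1, a glutathione transferase, 23517.6, and Gclc, the catalytic subunit of glutamate-cysteine ligase, 22708. Eno1, the enolase of glycolysis, shows how far rank can hang on the probe, with 23807 on its brightest and 347 on its dimmest probe.

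**Figure D2:**
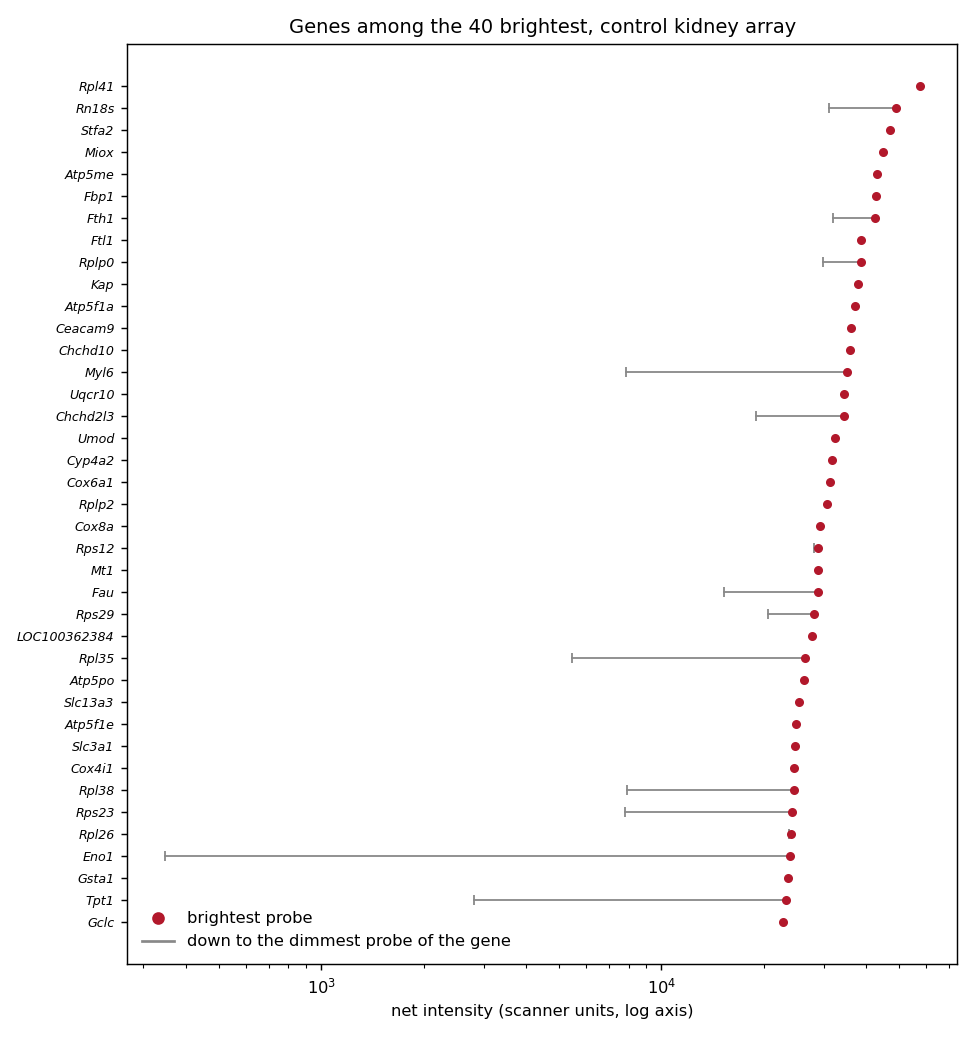
39 of the 40 brightest named genes of the control array, net intensity in scanner units on a log axis. Points are the brightest probe and grey lines run to the dimmest probe above background where a gene has several, from 57430 (Rpl41) down to 22708 (Gclc), with the longest line at Eno1 (23807 to 347).

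Promoter sequences of bright genes were set beside each other because housekeeping and tubule genes of like brightness differed in them, and the 4 shown were chosen after their values were seen. The stretches below are the 250 bases before the annotated start, read 5′ to 3′ on the gene's strand from the RefSeq promoter table of build GRCr8. Capitals mark TATAAA and GGGCGG and CCGGAAG and CCAAT on either strand. Umod lies at chr1:183261017-183261266 (minus strand), Slc34a1 at chr17:9238984-9239233 (minus strand), Rpl41 at chr7:1563498-1563747 (minus strand) and Cox8a at chr1:213833624-213833873 (minus strand).
Umod: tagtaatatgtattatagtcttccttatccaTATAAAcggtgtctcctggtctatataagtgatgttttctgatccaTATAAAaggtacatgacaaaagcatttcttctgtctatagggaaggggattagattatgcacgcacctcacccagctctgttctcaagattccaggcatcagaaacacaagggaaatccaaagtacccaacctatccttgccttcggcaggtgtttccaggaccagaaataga
Slc34a1: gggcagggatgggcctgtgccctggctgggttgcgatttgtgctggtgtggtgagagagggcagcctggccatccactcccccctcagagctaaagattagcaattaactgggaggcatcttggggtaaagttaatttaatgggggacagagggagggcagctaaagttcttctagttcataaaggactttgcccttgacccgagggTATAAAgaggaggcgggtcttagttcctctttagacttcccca
Rpl41: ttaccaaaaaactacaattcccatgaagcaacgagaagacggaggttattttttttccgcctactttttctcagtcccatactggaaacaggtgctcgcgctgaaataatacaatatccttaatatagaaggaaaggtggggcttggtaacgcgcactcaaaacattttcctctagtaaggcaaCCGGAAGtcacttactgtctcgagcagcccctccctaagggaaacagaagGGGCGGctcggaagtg
Cox8a: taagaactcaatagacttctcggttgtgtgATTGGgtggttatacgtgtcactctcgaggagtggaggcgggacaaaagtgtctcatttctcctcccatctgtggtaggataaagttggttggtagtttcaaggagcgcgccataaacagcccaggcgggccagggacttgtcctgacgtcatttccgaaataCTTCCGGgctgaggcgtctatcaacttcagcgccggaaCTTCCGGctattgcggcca

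In the Umod stretch TATAAA begins 219 and 173 bases before the start. In that of Slc34a1 it begins 43 bases before. Rpl41 has no TATAAA there but a GGGCGG, the core of a GC box, 16 bases before the start and a CCGGAAG, the core bound by ETS factors, 66 bases before. Cox8a has CCGGAAG on the opposite strand at 57 and at 19 bases before the start. The ratio of CpG pairs found to those expected from base content, taken over the 300 bases of the window that ends 50 bases after the start, was 0.20 for Umod and 0.23 for Slc34a1 but 0.87 for Rpl41 and 0.76 for Cox8a. The windows of other bright tubule genes read between these, at 0.40 for Aqp2, 0.42 for Miox and 0.33 for Fbp1. Of these 3, Miox has TATAAA 47 bases before the start, Fbp1 a GGGCGG 218 bases before and no TATAAA, and Aqp2 none of the motifs in the 250 bases before it. A match is a run of letters and no evidence that a factor binds.

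Over the tiers, the promoter windows of 14595 named genes were read the same way, on both strands. GGGCGG was present in 61.5% of 839 bright, 62.3% of 5424 middle, 54.8% of 2031 dim and 35.1% of 6301 silent genes, beside 49.5% of all 14595 named genes and 34.9% of all 27457 windows of the table, which also holds genes not on the array. The bright and middle tiers thus hardly differed and the silent tier stood apart from both. The median CpG ratio followed the same order, at 0.76, 0.78, 0.69 and 0.38. Median GC content was 59%, 60.7%, 60% and 53%, so silent genes were also poorer in GC. The motif shares were not adjusted for base content. TATAAA was found in 10.1% of bright, 7.41% of middle, 7.53% of dim and 16.9% of silent genes, beside 11.7% of the named genes and 14.3% of all windows. CCGGAAG was found in 18.0%, 19.1%, 13.5% and 6.52%, beside 12.8% and 9.22%, and CCAAT in 40.4%, 38.4%, 36.5% and 37.7%, beside 37.9% and 37.7%. The palindromic site of the respiratory factor NRF1 was found in 2.38%, 2.08%, 1.08% and 0.603%, beside 1.32% and 0.932%.

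Part of the silent tier's difference lay with chemoreceptors. In 989 olfactory receptor windows GGGCGG was found in 1.11% and TATAAA in 37.7%, with a median GC content of 35.3%. Among the 5216 silent genes outside the olfactory, vomeronasal and taste receptor families GGGCGG was found in 42.2% and TATAAA in 12.4%. Their median CpG ratio was 0.49 and their median GC content 56%. Bright genes were of more than 1 kind as well. Genes of the respiratory chain (69 windows) had a median CpG ratio of 0.86 and CCGGAAG in 30.4%, and ribosomal protein genes (73 windows) a ratio of 0.87 and CCGGAAG in 28.8%. In the nephron lists described next, 26 windows of bright genes were read, fewer than the 31 bright genes of those lists. These windows had a median CpG ratio of 0.24, GGGCGG in 19.2% and TATAAA in 23.1%. The median GC content was close in the 3 groups, at 56.3%, 56.0% and 55.2%, so what differed was the CpG ratio and the motif shares.

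**Figure D3:**
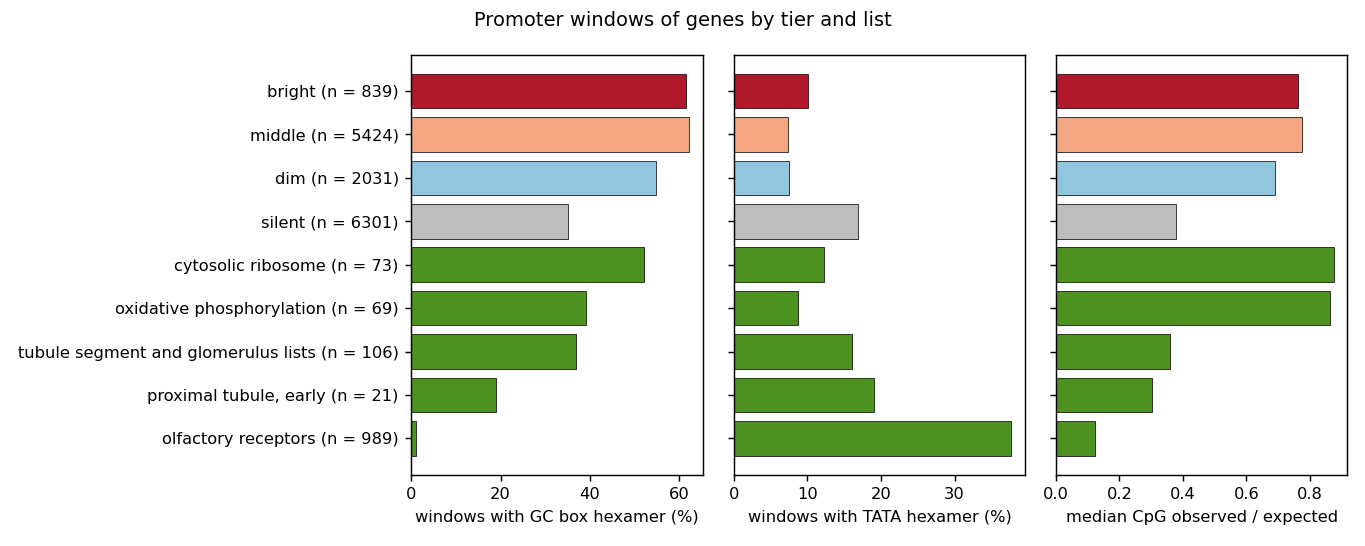
Share of promoter windows of 300 bases with the GC box hexamer (left) and the TATA hexamer (middle), in percent, and the median ratio of observed to expected CpG (right), for the 4 tiers and 5 gene lists, with the number of windows in brackets. Bright (0.76) and middle (0.78) genes have like CpG ratios, silent genes are lower (0.38), while nephron genes (0.36) are close to the silent tier and ribosomal genes (0.87) are the highest.

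Along the nephron, 134 genes from 10 lists of segment markers were on the array. Of these 120 (89.6%, against 56.1% of all named genes) were above background and 31 (23.1%, against 5.62%) were bright. The members were chosen with earlier results of these data known, so these shares describe the lists and are no independent result. How many were bright differed from segment to segment. The lists are of cells that differ greatly in number, and in RNA from whole kidney a smaller number of cells and less RNA per cell cannot be told apart.

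The glomerulus gave middle and dim signals. Of 16 podocyte genes 12 were above background and none was bright, with a list median of 113.5. Actn4, an actin cross-linker of the foot process, stood at 1196 and Podxl, the charged coat protein podocalyxin, at 1119. Nphs1 (nephrin), a defining protein of the slit diaphragm, was lower at 114. The transcription factor Wt1 stood at 63, while Magi2, a scaffold protein, was silent at 8. Col4a3, a chain of the glomerular basement membrane, was silent at 49 on a spot in a dim block, whereas its partner Col4a4 read 209. Of 10 mesangial and juxtaglomerular genes 7 were above background and none was bright. Agtr1a, the main angiotensin receptor, stood at 373.9 and Pdgfrb, a receptor of mesangial cells and pericytes, at 209. Akr1b7, Ptgs2 and Nos1, the last 2 known from the macula densa, were silent.

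The early proximal tubule had the highest list median of the segments. All 22 of its genes were above background, 14 were bright and the list median was 2590.5. The carriers for organic anions Slc22a6 and Slc22a8, which bring drugs and uremic solutes into the cell, stood at 18546 and 11950. Lrp2 (megalin), the receptor that takes back filtered protein, stood at 7115, with its partners Amn at 3254 and Cubn at 1391. Slc5a2, the glucose carrier SGLT2 that is the target of gliflozin drugs, stood at 5942, and Slc2a2, which lets glucose out on the blood side, at 643. The base of the list held Slc9a3, the sodium-proton exchanger, at 89 and Slc17a1 at 73, both in the middle tier. Late proximal genes were fewer and more mixed. Slc7a13, a carrier of cystine and acidic amino acids found in the straight tubule, stood at 18964. Slc6a18, a glycine carrier, stood at 3153 on its brightest probe and 84 on its dimmest. The other 6 of the 8 were below the bright limit, and Slc5a1 (SGLT1) was silent at 25.

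Enzymes of the brush border, which cut peptides in the filtrate, had 12 of 13 above background and 4 bright. Ggt1, which starts the breakdown of glutathione, stood at 5285, Mep1b at 2687 and Mme, neprilysin, at 1944. Dpp4, the target of gliptin drugs, stood at 2407 on its brightest probe and 204 on its dimmest. Enpep, the aminopeptidase that trims angiotensin, lay just under the limit at 1717. Ace, the angiotensin-converting enzyme, was in the middle tier at 108. Treh, trehalase, was silent at 10.

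In the thin limbs and medulla 11 of 13 genes were above background and only Aqp1, the constitutive water channel shared with the proximal tubule, was bright, at 3406.2. Genes of the response to a salty medulla read 764 for Slc5a3, the inositol carrier, and 243 for Slc6a6, the taurine carrier, both on spots in dim blocks. Slc6a12, the betaine carrier, read 142 and the osmotic transcription factor Nfat5 read 240.8. Slc14a2, the urea carrier of the inner medulla, stood at 100.

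The thick ascending limb had all 13 genes above background, 5 of them bright, and a median of 1324.6. Below Umod came Ppp1r1a, a phosphatase inhibitor, at 11925. Slc12a1, the cotransporter NKCC2 that loop diuretics block, stood at 4442. Kcnj1 (ROMK), the potassium channel that feeds Slc12a1, stood at 2171 on its brightest probe and 157 on its dimmest. The claudins of the paracellular path were lower, with Cldn19 at 1513, Cldn10 at 664 and Cldn16 at 80. Egf, whose precursor is made here and in the distal tubule, stood at 1324.6 on its brightest probe and 135 on its dimmest.

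In the distal convoluted and connecting tubule 11 of 13 genes were above background. Slc12a3, the thiazide-sensitive cotransporter NCC, was bright at 2108 on its brightest probe and read 181 on its dimmest. Klk1, tissue kallikrein, was bright too, at 3886 on a spot in a dim block. S100g and Calb1, the calcium carriers of the cytosol, stood at 748 and 214, while the calcium channel Trpv5 (13) and Pvalb (10) were silent. Wnk1, a kinase that governs these cotransporters, stood at 1016 on its brightest probe and 40 on its dimmest. Wnk4 stood at 45 on a spot in a dim block.

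The collecting duct was above background nearly throughout, with few bright genes. All 12 principal cell genes passed, 2 of them bright, Aqp2 and Hsd11b2, the enzyme that keeps cortisol-like hormones off the mineralocorticoid receptor, at 4969. Aqp3, the basolateral water channel, stood at 1334.5 and Aqp4 at 241. The subunits of the sodium channel ENaC all lay in the middle tier, whose median is 216, with Scnn1g above it at 302.5 and Scnn1b at 110 and Scnn1a at 90 below. The vasopressin receptor Avpr2 (109) and the mineralocorticoid receptor Nr3c2 (108) were below it too. Of the 14 intercalated cell genes 13 passed and Atp6v0a4, a subunit of the proton pump, was bright at 3218. Car2, carbonic anhydrase, stood at 1392 and Slc4a1, the anion exchanger of acid-secreting cells, at 865. Foxi1, the factor that sets the fate of intercalated cells, read 929 on its brightest probe and 31 on its dimmest. Slc26a4 (pendrin), the exchanger of base-secreting cells, read 112.

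**Figure D4:**
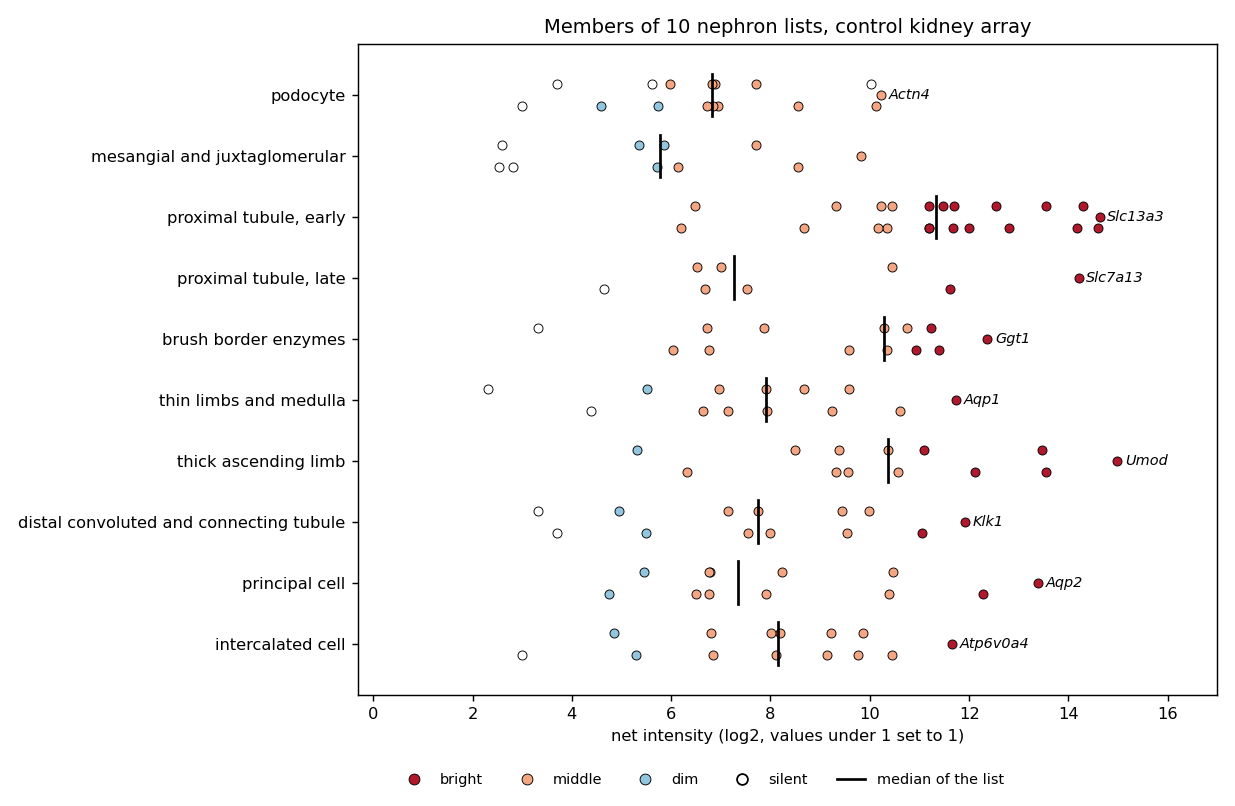
Net intensity (log2 of scanner units, values under 1 set to 1) of each member of the 10 nephron lists on the control array, with the list median as a black bar and the brightest member named in 9 of them. Filled colours give the tier and open circles the silent genes. The early proximal tubule has the highest median (2590.5) and the mesangial and juxtaglomerular list the lowest (55.2).

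Whole kidney also holds vessels, stroma and blood. Over all named genes 56.1% were above background. The share was 71.4% in the endothelial, 72.7% in the smooth muscle, 81.8% in the fibroblast and 83.3% in the macrophage list. In the lymphocyte list it was 33.3%. In the endothelial list 10 of 14 genes were above background and 2 bright, Plvap, the diaphragm protein of fenestrated capillaries, at 4020 and Kdr, a VEGF receptor rich in glomerular endothelium, at 2091. Pecam1 stood at 592, whereas Cdh5 and Cldn5 were silent at 40 and 48, and so was Tek at 12, on a spot in a dim block. Smooth muscle genes passed in 8 of 11, led by Mylk at 542, with Acta2 at 105 and Myh11 at 71. Fibroblast and matrix genes passed in 9 of 11, with Sparc bright at 2508, Col1a2 at 1361 and Dcn at 610, and with Postn and Lum silent. Macrophage genes passed in 10 of 12, Lyz2 (11673) and Tyrobp (1833) being bright, C1qb standing at 1110, Cd68 at 274, and Cd163 and Mrc1 silent. Lymphocyte genes passed in 4 of 12, led by Cd3d at 181.5, and Cd3e, Cd79a and Ms4a1 were silent. Of 9 blood cell genes 5 passed (55.6%, near the 56.1% of all named genes), and the globin transcripts Hba-a1 (21328) and Hbb (11898) were bright.

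Genes of nearby tissues had no bright member. Of 10 adipocyte genes 6 passed (60%, near the 56.1% of all named genes), Cidea leading at 426 with Adipoq at 73 and Fabp4 at 55, and Lep and Plin1 were silent. Of 7 urothelial genes 2 passed, Upk1a at 76 and Upk1b at 62. Of 8 adrenal genes 2 passed, both of the medulla, Th at 234 and Pnmt at 62. Dbh, also of the medulla, was silent at 2, and the steroid genes of this list were silent too. Outside it, the steroid genes Cyp21a1 and Cyp17a1 read 84 in the middle and 29 in the dim tier, and Cyp11b3 was silent at 29. Lists of tissues outside the kidney had 68 genes on the array, of which 14 (20.6%) passed, none was bright, and the median net intensity was 8.25. None of 11 neuron and glia genes and none of 9 testis genes was above background. The exceptions were Cyp2c11 (263), Ambp (94), F2 (88), Fga (67), Apob (47) and Fgb (23) among 14 liver genes, with Alb silent at 7, and Actc1 (576), Tnni2 (97) and Mb (87) among 12 of striated muscle. Pomc stood at 366, Lhb at 83 and Ins1 at 30 among 13 of pancreas and pituitary, and Cryga at 80 and Gnat1 at 44.4 among 9 of retina and lens.

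**Figure D5:**
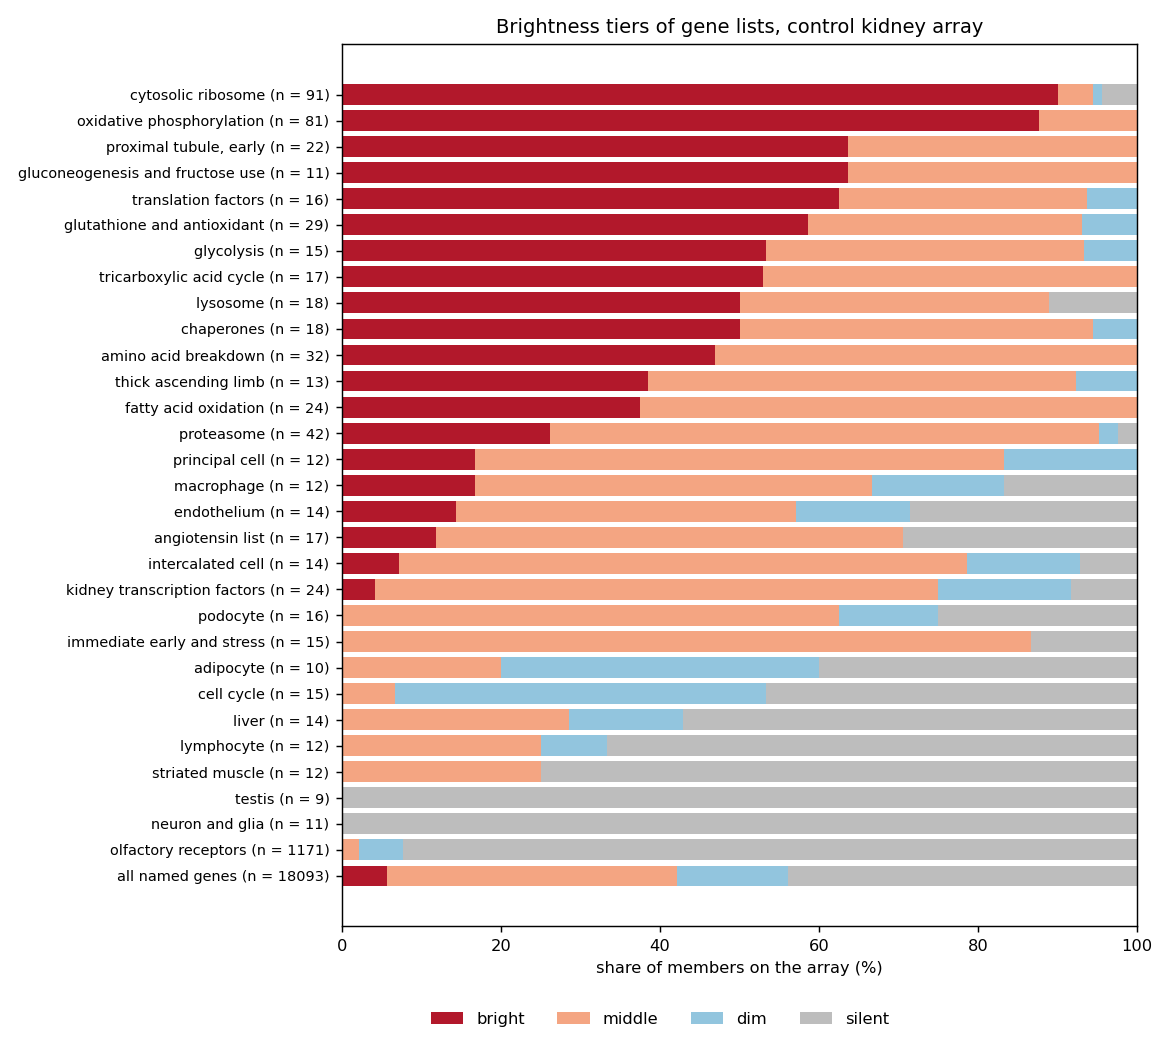
Share of the members of each gene list in the bright, middle, dim and silent tiers of the control array, in percent of the members on the array (n in brackets), with all 18093 named genes in the lowest bar. Ribosome (82 of 91) and oxidative phosphorylation (71 of 81) are mostly bright, and testis and neuron lists wholly silent.

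Of all named genes 56.1% were above background and 5.62% bright, and the pathway counts here and below stand against these shares. Among pathways, oxidative phosphorylation, the chain that turns electron flow into ATP, had all 81 genes above background and 71 bright. It made up 8.5% of the summed net intensity. The median of its members was 6790. Spread within a single complex was wide all the same: among ATP synthase subunits Atp5me read 42987 and Atp5f1b, the catalytic beta chain, 1921.9. Each of them has a single probe, so how much of this gap lies with the probes was not tested. The members under the bright limit ran from Cox7c at 1701 down to Ndufa7 at 142 and Uqcrq at 117. The cytosolic ribosome had 87 of 91 genes above background and 82 bright, with a median of 11841 and 12.9% of the summed net intensity. Its silent members were Rpl17l1, Rpl39l1, Rpl27l2 and Rpl3l, paralogs of the standard proteins. Rpl15 read 45.1 in the dim tier, and its paralog Rpl15l2 read 13790. The values of such paralogs are uncertain, since probes can share targets.

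Fuel use was bright along several routes. Gluconeogenesis and fructose use had all 11 genes above background and 7 bright. Below Fbp1 in this list, Khk, the kinase that commits fructose, stood at 14257 on its brightest probe and 49 on its dimmest. Slc37a4 and G6pc1, which release free glucose, stood at 6994 and 6379, and the dimmest probe of G6pc1 read 134. Pck1, which draws on oxaloacetate, stood at 3412. Glycolysis had all 15 above background and 8 bright, and the regulated steps were all under the bright limit, with Hk1 at 764, Pfkp at 757, Pfkm at 278, Pkm at 180, Pfkl at 122 on a spot in a dim block and Hk2 at 29 in the dim tier. The tricarboxylic acid cycle had 17 of 17 above background and 9 bright, Idh2 at 15458 and Suclg1 at 14316 leading. Fatty acid oxidation had 24 of 24 above background and 9 bright, with Hadh at 9188 and Echs1 at 7452, both of the mitochondrion, while Cpt1a, the gate of mitochondrial entry, stood at 335.1 and its regulator Ppara at 65. In the list named amino acid breakdown all 32 passed and 15 were bright, among them Agxt2 at 5030. Some of the bright members serve other routes, and the brightest, Miox at 44682, acts on inositol. Ass1, of arginine synthesis, stood at 3496 and Gatm, the first enzyme of creatine synthesis, at 3329.6 (243 on its dimmest probe).

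Defence against oxidants had all 29 genes above background and 17 bright. Beside Mt1, Gsta1 and Gclc stood the peroxidases Gpx4 at 22527 and Gpx1 at 20060.9 and the dismutase Sod1 at 19893. The lowest of the list were Hmox1, heme oxygenase, at 46.6 and Nqo1 at 29, both dim. Of 27 genes for drug carriers and conjugation 25 passed and 10 were bright, such as Cyp2c23, an epoxygenase, at 19525.9. Lysosomal genes passed in 16 of 18, with the cathepsins Ctsb at 22096, Ctsa at 21762 and Ctsl at 14404. The proteasome had 41 of 42 above background and 11 bright (26.2%, against 5.62% of all named genes), Psme1 leading at 5527. Psmb11 (20) and Psma8 (8), subunits known from thymus and testis, were its dimmest members. Chaperones passed in 18 of 18, with Hspa8 at 20410 on its brightest probe (273 on its dimmest) and the small heat shock protein Cryab at 11626. Canx, calnexin, was dim at 26 on a spot in a dim block. Translation factors passed in 16 of 16 with 10 bright, Tpt1 (23181) and Eef1a1 (14276) first. Cytoskeletal genes passed in 17 of 17 with 9 bright, Myl6 at 35149 and Actg1 at 21924 on their brightest probes. Actb read 2348.4, between the 2 probes of Actg1, the dimmer of which read 605.

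For the sodium pump, which drives all tubular reabsorption, the beta subunit Atp1b1 was bright at 17061 and the regulator Fxyd2 at 10728. The V-ATPase proton pump had 21 of 22 subunits above background and 3 bright.

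The angiotensin list, which bears on blood pressure in this strain, had 12 of 17 genes above background (70.6%, against 56.1% of all named genes). Only 2 were bright (11.8%, against 5.62%). These were Ctsa and Mme, peptidases with many other substrates. Others closer to the hormone lay in the middle tier, with its precursor Agt at 892, the receptors Agtr1a at 373.9 and Agtr1b at 70, and the converting enzyme Ace at 108. Agtr2 at -4, Mas1 at 9, Cma1 at -2, the adrenal aldosterone synthase Cyp11b2 at 2 and Lnpep at 65 were under the limit. Cd36, a fatty acid carrier gene known for a defect in lines of this strain, read 93 in the middle tier.

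Regulators were mostly in the middle. Of 24 kidney transcription factors 22 passed and only Esrra, a nuclear receptor that drives mitochondrial genes, was bright, at 2110.2. Tfcp2l1 of the collecting duct stood at 1347, Hoxb7 at 1175 and Pax8 at 423. Hnf4a, a master regulator of the proximal tubule, was near the lower limit of the middle tier at 78. Pax2 was silent at 16, and Esrrg at 7 on a spot in a dim block.

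Kidney hormones and vitamin D genes passed in 15 of 17 (88.2%, against 56.1% of all named genes). B2m (8140) and Apoe (8080), proteins made by many cells, were bright. Cyp24a1, which breaks vitamin D down, stood at 444, Kl (klotho) at 256 and Cyp27b1, which activates vitamin D, at 62. Epo was silent at 17.

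Growth and injury genes were mixed. Cell cycle genes passed in 8 of 15 (53.3%, near the 56.1% of all named genes), and all but Pcna (444), which also serves repair, were dim, Mki67 at 31 and Cdk1 at 43.6 among them. Of 15 immediate early genes 13 passed (86.7%) and none was bright, Junb at 824 being the highest, with Jun at 404 on a spot in a dim block and Fos (7) and Dusp1 (8) silent. Of 14 genes linked to tubular injury 12 passed (85.7%). Havcr1 (KIM-1) was silent at 12 and Lcn2 (NGAL) dim at 44, while Tff3, a trefoil peptide, was bright at 15375 and Spp1 (osteopontin), S100a6 and Anxa2 read 1656.7, 1557 and 1148 in the upper middle tier. Clock genes passed in 10 of 14 (71.4%). Dbp, an output gene of the clock, was bright at 5525, Per2 read 150.2, Bmal1 was dim at 36, and Nr1d1 (21), Clock (21) and Per1 (18, on a spot in a dim block) were silent. The labels do not give the hour at which the kidneys were taken.

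Gene families differed in the share above background, which was 56.1% over all named genes. Olfactory receptors, the largest family of the rat genome, passed in 90 of 1171 (7.69%), none was bright, and the brightest was Or2ak6 at 421. Vomeronasal and taste receptors passed in 20 of 201 (9.95%), led by Vom1r57 at 548. Solute carriers passed in 230 of 349 (65.9%) and 27 were bright, a share of 7.74% beside 5.62% of all genes, so the family as a whole was little brighter than the array and its 5 brightest members were from the proximal tubule lists. Aquaporins passed in 7 of 11, with Aqp7 at 745 and Aqp11 at 595 between the classic channels and Aqp6 at 39, and with Aqp5, Aqp9 and Mip silent, and Aqp8 silent at 28 on a spot in a dim block. The aquaporin share was thus 63.6%. Claudins passed in 13 of 25 (52.0%), Cldn2, the leaky claudin of the proximal tubule, reading 563.

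Cytochrome P450 genes passed in 34 of 74, and the 7 bright ones were all of subfamilies 4A, 4F, 2C and 2D. Cyp4a2 and Cyp2c23 were followed by Cyp4f1 at 8083, Cyp2d5 at 6141 and Cyp4a3 at 5891. UDP-glucuronosyltransferases passed in 5 of 12, with Ugt1a6 at 5018 on a spot in a dim block. Potassium channels passed in 36 of 91, and of the 3 bright ones Kcnj1 and Kcnj16 (2168) are known tubule channels, whereas Kcng1 read 4456 on its brightest and 49 on its dimmest probe above background. Keratins passed in 10 of 52, Krt7 standing at 8798, Krt18 at 317 and Krt8 at 49.9. Defensins passed in 14 of 48, with Defb1, the beta-defensin of distal tubules, alone in the bright tier at 7925. Tissue kallikreins passed in 8 of 22, and the 3 bright ones, Klk1c3 (4785), Klk1 and Klk1b3 (3527), are close paralogs whose probes may share targets. Collagens passed in 24 of 40 (60%) with none bright, and homeobox cluster genes in 16 of 30 (53.3%), Hoxb6 at 1486 being the highest. Both shares are near that of all named genes. V-ATPase subunits (95.5%), glutathione transferases (75.9%) and mitochondrial carriers (74.0%) were above it.

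The sets of bright genes were largely shared with the other arrays of the series, which carry kidney RNA of treated rats of the same strain. Of the 40 brightest genes of the control array 35 (87.5%) were among the 40 brightest of the low-dose and 36 (90%) of the high-dose array. Of the bright tier 953 genes were also bright at the low dose, which is 93.8% of the control list and 90.2% of the low-dose list of 1056. At the high dose 981 were shared, 96.6% of the control list and 89.7% of the high-dose list of 1094. The other arrays had slightly more probes above background, 15806 (52.2%) and 16617 (54.8%). Single genes held other places. Aqp2 read 10691 in rank 174 on the control array, 32076 in rank 21 at the low dose and 20563 in rank 74 at the high dose. Umod read 32413, 29368 and 32503, and Slc34a1 20143, 19438 and 20009, which are smaller differences than that of Aqp2. Kap stood in rank 10 on the control array and rank 2 on both others, and Gclc in rank 40 against 165 and 86. Larger moves were seen lower down, chosen here after their values were seen. Ucp1 went from rank 9172 on the control array to 872 at the low and 2626 at the high dose, Adipoq from 6997 to 2100 and 2277, and Col1a1 from 4758 to 1014 and 4010. Havcr1, silent on the control and high-dose arrays, held rank 4574 at the low dose. Intensities were not scaled between arrays here, each group has 1 array, and whether any such difference exceeds the spread between rats could not be tested.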

How the data were processed

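Kidney RNA of the control group was measured on 1 Agilent rat array. The scanner file was written by GenePix Pro 6.1.0.4 at 532 nm and a photomultiplier setting of 550, per the file headers, although Agilent Feature Extraction is the tool in the submitters' processing notes. The authors' software gave each spot's intensity and subtracted a background of 39 from it, with no normalization, per the file headers. As deposited, signal-to-noise ratios and flags are a score and saturated pixels a percent. A table of log2 values came from the authors too, scaled by a method not given in the sources used here, and served only as an alternative ranking.

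Control spots were dropped, as were 132 uneven spots (pixel mean over 1.5-fold from the median) and 4 bright spots the software had not found, which left 100 probes with no spot. Spots of a probe were averaged. Probes were named through RefSeq by accession (18754 probes), then current symbol (2572) or synonym (409), then the file's own symbol (141), and 8491 had no name. Of the unnamed probes 43.8% were above background and of the named 53.4%. Precision is limited by there being a single array. Genes are named by a rule: the 40 brightest, the 3 markers, up to 5 brightest members, defining markers and silent members of each list, members of other tissues' lists above background, the brightest 4 of each family and genes at the tier limits. Some genes that meet this rule are not reported here. The members and the 64 lists were chosen with earlier results of these data known. No test was run, since each group has 1 sample. Alternatives changed the signal-to-noise limit (2 or 5), the spot rule, pixel median for mean, dim blocks, the gene rule, the ranking measure, normexp background correction in limma 3.58.1 (R 4.3.3, offset 50) and the tier limit. Tables were made with Python 3.11.15 and pandas 2.3.3, and the scripts were tested on simulated data.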

Additional observations from a re-analysis of the deposited data

How the results depend on the processing

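Probes above background numbered from 12963 (signal-to-noise limit of 5) to 17481 (limit of 2) over the alternatives, and named genes from 8707 to 11372. Of 158 leading values compared 2 moved by over 1.5 times: bright genes of the early proximal tubule numbered 8 with bright as the highest 5% of genes, and bright genes of the thick ascending limb 10 with bright as the highest 25%. Of all 1072 values compared, 53 moved by over 1.5 times, and 37 of these came from redrawing the bright tier. Of the 1016 bright genes, 871 were also bright with a limit of 5, 926 with genes at the mean of their probes and 1001 with the authors' log2 values. With a limit of 2 and with normexp correction it was 1016 each, but these counts were nearly fixed in advance. A lower limit mostly adds weak genes and widens the bright tier, and normexp with a single background value keeps the order of spots. Leaving out the dim blocks, whether found by replicate spots or, chosen after seeing the data, against the other arrays, left 1 bright gene of the distal convoluted and connecting tubule. No paired analysis was possible because each group has 1 array. Signal over background is the limit at the low end: the spike-in with a median of 26 passed in 18 of 32 spots and the one below it, at 15.5, in 0.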

Other observations

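Some bright genes outside every list are known for other tissues or settings, and were chosen after their values were seen. Tbx21, a transcription factor of T cells, read 11275 on its only probe while the T cell genes Cd3d and Cd3g read 181.5 and 36 and Cd3e was silent at 14. The homeobox gene Hmx1 read 9762 and the segmentation gene Hes7 9160, each on a single probe. Stfa2, a stefin, was the third brightest named gene at 47093, and Ceacam9, of the carcinoembryonic antigen family, read 35966 in rank 12. Both kept a place among the 20 brightest genes of the low- and high-dose arrays. The interferon-responsive Igtp read 10245 on its brightest probe and 30 on its dimmest, and the mitochondrial helicase Twnk 19624 and 69. Mx2, also interferon-responsive, read 7573. What these probes bind was not tested.

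Bright genes with known places in the tubule, also outside the lists and also chosen after their values were seen, included Cdh16, the kidney cadherin, at 11165, Crym, a thyroid hormone binding protein, at 15629, Napsa, an aspartic protease of lung and kidney, at 11578, and Dnase1 at 9456. The peroxisomal oxidase Hao2 and the mercapturate-pathway enzymes Nat8 and Acy3 read 18028, 17896 and 17282, and the folate receptor Folr1 read 7423. Of the 1016 bright genes 345 (34.0%) were in any list, so most of the bright tier is not described by name.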
